A study of Homo sapiens with 8 samples.

Results

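The BCL2 family decides whether a cell keeps or loses the integrity of its outer mitochondrial membrane. Anti-apoptotic members (BCL2, BCL2L1 and MCL1) hold the pore-forming effectors BAX and BAK1 in check. BH3-only members (BID, BMF, BBC3, BCL2L11 and BAD) sense damage and either occupy the anti-apoptotic proteins or act on the effectors directly. Once BAX or BAK1 oligomerises, cytochrome c leaves the mitochondrion and caspases are activated.

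The messages of these 10 family genes were followed in Ea.hy926, a human hybrid line that descends from endothelium of the umbilical vein fused with the lung carcinoma line A549. The genes were chosen as a named family in 3 roles (3 anti-apoptotic, 2 effector and 5 BH3-only) and matched by symbol, and all 10 were present among the 38010 gene IDs of the count table. The parental group (Eahy, 4 biological replicates) was compared with the OXPHOS-deficient Rho0 group (4 biological replicates), both sampled at confluence. By convention, Rho0 cells have lost their mitochondrial DNA, and the labels do not state how this line was derived. The study's title places the comparison in a question on respiration, autophagy and stress resistance of quiescent cells. Each genotype is 1 line, so P-values measure the spread between cultures, and differences between the lines unrelated to respiration cannot be told apart from it.

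Libraries held 11721448 (Rho0 replicate 2) to 37203313 (Rho0 replicate 4) rounded counts. The 13 mitochondrially encoded mRNAs made up 16.05% to 21.4% of parental and 0.00296% to 0.149% of Rho0 libraries (exact permutation test, two-sided, p = 0.0286, n = 4 each, which no arrangement of 70 can undercut). Rho0 replicate 2 held the 0.149%, the others at most 0.00756%. Of 11 endothelial markers 10 were at 1 CPM (counts relative to library size after TMM scaling) or more in both lines, CLDN5 being the exception, and their summed level was 6127 to 7002 CPM in parental and 6587 to 7464 CPM in Rho0 libraries. Single markers moved in both directions behind these sums: KDR rose from 13.8 to 130.4 CPM and PECAM1 from 1085 to 2116 CPM, while CDH5 fell from 1716 to 1033 CPM and ESAM from 413 to 264 CPM. Of 6 epithelial markers 3 reached 1 CPM in both lines, with a sum of 2605 to 2877 CPM in parental and 1294 to 2077 CPM in Rho0 libraries. EPCAM, CDH1 and KRT19 stayed below 1 CPM on average. No fibroblast marker of 7 averaged 1 CPM in either line, with LUM at 0 in parental and COL3A1 at 0 in Rho0 libraries. The 5 leukocyte markers summed to 1.75 to 2.47 CPM in parental and 5.49 to 6.69 CPM in Rho0, mostly LYZ, with CD3E at 0 in both. Their part in the results below was not tested.

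Within the family, mRNA moved in both directions. Of the 9 members that passed the filter on low counts, BMF, BBC3 and BCL2L11 rose in Rho0, BAK1, BID, BAX and BAD fell, and BCL2L1 and MCL1 did not pass the test (quasi-likelihood test in edgeR, calls at 0.05 after Benjamini-Hochberg adjustment over 15184 genes). BCL2 was too low to be tested. The expression of a large part of the genome differed: 29% of all genes tested were higher and 25.4% lower, so 3 higher and 4 lower of 9 is near the background. The median log2 fold change was -0.26 for the 9 members and 0.05 for all genes. In bulk RNA, fewer cells with a message and less of it per cell cannot be told apart.

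**Figure D1:**
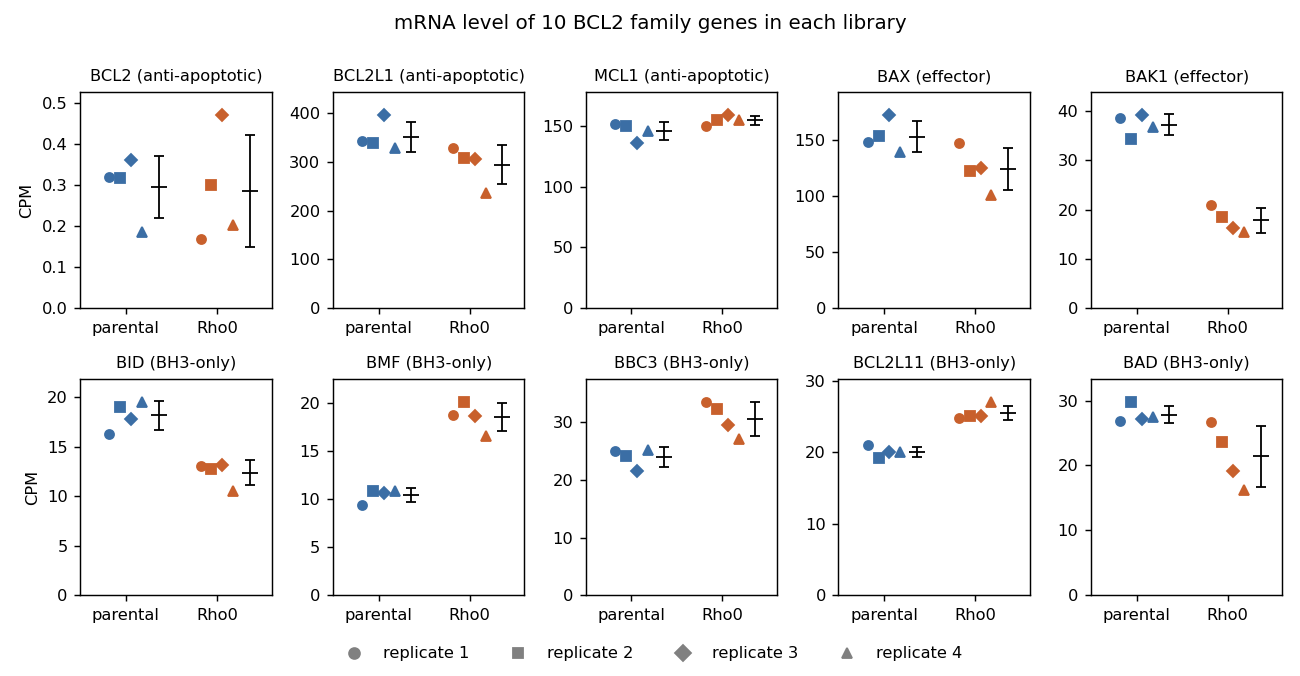
Level of each family mRNA in CPM (vertical axis from 0, a separate scale for each gene) in the 4 parental and 4 Rho0 libraries. Symbols mark the replicate, and the black bar is the mean with 1 SD. BAK1 sits at 34.4 to 39.2 CPM in parental and 15.4 to 21.0 CPM in Rho0 libraries, and BMF at 9.35 to 10.9 and 16.6 to 20.1 CPM.

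Levels of different genes were compared as CPM per kilobase of the gene's median protein-coding transcript. On this scale BCL2L1 was the most abundant member in both lines, at 384 ± 33.0 in parental and 322 ± 44.1 in Rho0 (SD, n = 4 each). BAX followed at 284 ± 25.9 and 229 ± 34.8. A wide gap separated these from BAD (48.1 ± 2.30 and 37.0 ± 8.11) and MCL1 (40.2 ± 1.95 and 42.6 ± 0.994), whose order differed between the lines and which overlapped within the spread in Rho0. BAK1, BMF, BBC3 and BCL2L11 lay between 8.34 and 27.6, and BID at 9.14 ± 0.730 and 6.22 ± 0.635. BCL2 was lowest at 0.0591 ± 0.0152 and 0.0570 ± 0.0271. The first and second places of BCL2L1 and BAX and the last place of BCL2 held with the longest and the shortest transcript in place of the median. The order of the BH3-only members did not: with the longest transcript BMF was at 2.22 and 3.95 and ranked 9 of 10.

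Neither tested anti-apoptotic message was called in edgeR, although 1 of them, BCL2L1, was lower at an unadjusted p under 0.05 and by DESeq2, and none by limma. BCL2L1 (chromosome 20, 31664452 to 31723989, minus strand; coordinates are GENCODE 29 on GRCh38) encodes BCL-xL, which guards the outer membrane against BAX and BAK1. Its level was 343, 338, 396 and 329.1 CPM in parental replicates 1 to 4 and 328.8, 307, 306 and 236 CPM in Rho0 replicates 1 to 4. The groups were separated by a margin far smaller than the spread within either. The log2 fold change was -0.26 (SE 0.11) and missed the threshold (edgeR adjusted p = 0.064). It passed with the DESeq2 Wald test (adjusted p = 0.046) and without Rho0 replicate 1 (-0.34, edgeR adjusted p = 0.023), and its sign turned to 0.14, not called, when libraries were scaled by total count alone.

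MCL1 (chromosome 1, 150574551 to 150579738, minus strand) encodes a short-lived protein that binds BAK1 and the BH3-only proteins. It had 152, 150, 136 and 146 CPM in parental and 150, 154, 159 and 155 CPM in Rho0 libraries. The groups overlapped, and the mean moved from 146 ± 7.09 to 155 ± 3.61 CPM (SD over 4 libraries; the log2 fold change was 0.08 with an SE of 0.06, edgeR adjusted p = 0.276). With total-count scaling it was called at 0.47 (edgeR adjusted p = 4.6e-04), and after correcting for the length and GC content of transcripts it lay at -0.07, not called.

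BCL2 (chromosome 18, 63123346 to 63320128, minus strand), the founding member, was close to silent. It had 7, 8, 7 and 4 estimated counts in parental and 6, 4, 11 and 9 in Rho0 libraries, 0.296 ± 0.0762 and 0.286 ± 0.136 CPM (SD, n = 4 each). Summed over libraries and before any scaling, the counts were 26 in parental and 30 in Rho0, so slightly higher in Rho0. After TMM scaling the Rho0 to parental ratio was 0.869, with an exact 95% interval of 0.497 to 1.53. Ratio and interval move with the scaling, and the interval covers counting error only. A difference within these bounds was not detectable at this depth.

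The effectors differed in size of change. BAK1 resides on the outer mitochondrial membrane, where MCL1, BCL-xL and VDAC2 bind it. It was at 38.5, 34.4, 39.2 and 36.8 CPM in parental and 21.0, 18.5, 16.4 and 15.4 CPM in Rho0 libraries. Every Rho0 library was below every parental library, as were the Rho0 values of 24.3% of all genes tested. The log2 fold change of -1.06 (SE 0.10, edgeR adjusted p = 1.1e-05) was the lowest of the members, and 5.18% of all genes tested had a lower one. BAK1 (chromosome 6, 33572547 to 33580293, GRCh38, minus strand) lies within GGNBP1 on the other strand, which was also lower (73.4 summed counts in parental and 45.1 in Rho0 libraries, log2 fold change -1.09, edgeR adjusted p = 0.0026). Its part in the value of BAK1 was not tested, and BAK1 itself had 246 to 865 counts in each library. The processed pseudogene BAK1P1 held 5.35 summed counts in parental and 6.35 in Rho0 libraries, and BAK1P2 held none.

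BAX (chromosome 19, 48954815 to 48961798, plus strand), which moves from the cytosol to the mitochondrion when activated, changed less. Its parental libraries had 148, 153, 172 and 139 CPM and its Rho0 libraries 147, 123, 125 and 101 CPM. Rho0 replicate 1 reached into the parental range. The log2 fold change was -0.31 (SE 0.11, edgeR adjusted p = 0.038). The call ended without any 1 of parental replicates 1, 2 and 3 or Rho0 replicates 2 and 3 (adjusted p = 0.060 to 0.108), after the correction for length and GC content (-0.04, adjusted p = 0.541), and with total-count scaling, where the sign turned (0.0858, adjusted p = 0.401). Within each library the log2 ratio of BAK1 to BAX, which no library scaling affects, was -2.16 to -1.92 in parental and -2.93 to -2.72 in Rho0 libraries. These ranges did not overlap, and the mean difference was -0.76. Against BAX, 10.2% of all other tested genes lay lower in Rho0 without overlap and 36.1% higher, with a median difference of 0.35.

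The BH3-only messages divided, with 3 of 5 higher and 2 of 5 lower. BMF, BBC3 and BCL2L11 had every Rho0 library above every parental one, as had 26.6% of all genes tested. BMF (chromosome 15, 40087890 to 40108892, minus strand) encodes a protein held at the actin and myosin V cytoskeleton and is known for its role in death after detachment. It was at 9.35, 10.9, 10.7 and 10.8 CPM in parental and 18.8, 20.1, 18.7 and 16.6 CPM in Rho0 libraries. The log2 fold change of 0.83 (SE 0.09, edgeR adjusted p = 2.9e-05), a 1.77-fold rise, was the highest of the members. A higher one was seen in 11.8% of all genes tested.

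BBC3 (chromosome 19, 47220822 to 47232766, minus strand) encodes PUMA, a target of FOXO factors that binds all anti-apoptotic members. It had 25.0, 24.1, 21.5 and 25.2 CPM in parental and 33.5, 32.4, 29.5 and 27.1 CPM in Rho0 libraries. It rose 1.28-fold (log2 fold change 0.35, SE 0.09, edgeR adjusted p = 0.0073). BCL2L11 (chromosome 2, 111119378 to 111168447, plus strand) encodes BIM, which is bound by dynein light chain and controlled by FOXO3 and by ERK signalling. It had 21.0, 19.2, 20.1 and 20.0 CPM in parental and 24.9, 25.1, 25.1 and 27.0 CPM in Rho0 libraries, a 1.27-fold rise (log2 fold change 0.35, SE 0.07, edgeR adjusted p = 0.0017). In both lines its spread over cultures was small, with a coefficient of variation of 3.61% and 3.92%.

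Since these BH3-only genes rose together, the 250 bases before their outermost RefSeq start (GRCh38.p14) are shown, 5′ to 3′ on the gene's strand. Capitals mark matches to the FOXO core GTAAACA, the E-box CACGTG or the AP-1 site TGANTCA. A core of the composite ATF4-CHOP site, TGATGNAA, was also searched, on both strands in each case.
BMF, chr15:40108880-40109129, minus strand: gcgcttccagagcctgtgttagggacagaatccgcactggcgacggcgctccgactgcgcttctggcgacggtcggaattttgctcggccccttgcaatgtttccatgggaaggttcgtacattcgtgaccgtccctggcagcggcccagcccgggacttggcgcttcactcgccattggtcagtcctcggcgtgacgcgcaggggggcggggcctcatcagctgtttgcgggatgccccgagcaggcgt
BBC3, chr19:47232668-47232917, minus strand: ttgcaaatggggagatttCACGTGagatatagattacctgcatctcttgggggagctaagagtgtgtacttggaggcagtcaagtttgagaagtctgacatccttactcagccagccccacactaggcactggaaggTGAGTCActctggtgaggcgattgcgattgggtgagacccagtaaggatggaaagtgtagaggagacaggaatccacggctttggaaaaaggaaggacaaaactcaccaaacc
BCL2L11, chr2:111120664-111120913, plus strand: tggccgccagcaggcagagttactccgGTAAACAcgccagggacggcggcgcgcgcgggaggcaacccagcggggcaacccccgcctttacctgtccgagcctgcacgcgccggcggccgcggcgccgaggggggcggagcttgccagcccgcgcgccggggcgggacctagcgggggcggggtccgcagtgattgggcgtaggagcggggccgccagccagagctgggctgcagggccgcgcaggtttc

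BCL2L11 held 1 FOXO core 223 bases before the start, a motif found in 2.98% of all 35116 promoter windows of this length. BBC3 held 1 E-box at 232 bases and 1 AP-1 site at 113 bases before the start, motifs found in 6.34% and 6.57% of windows. BMF held none of the 4 motifs in this window. Among the 9 members with a window, BAX held 4 E-boxes, and the others not named here held none of the motifs. The ATF4-CHOP core, found in 3.14% of windows, was in no member's window. The matches are descriptions of sequence, and binding was not measured.

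BID (chromosome 22, 17734138 to 17774770, minus strand) links death receptors to mitochondria, being cut by caspase-8 into its active form. It was at 16.3, 19.1, 17.8 and 19.5 CPM in parental and 13.1, 12.7, 13.2 and 10.5 CPM in Rho0 libraries, with no overlap. The log2 fold change was -0.56 (SE 0.10, edgeR adjusted p = 8.9e-04). With total-count scaling it was -0.17 and not called (adjusted p = 0.18).

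BAD, a sensitiser that is inactivated when AKT phosphorylates it and 14-3-3 proteins bind it, was at 26.82, 29.8, 27.2 and 27.4 CPM in parental libraries. Its Rho0 libraries had 26.75, 23.6, 19.1 and 16.2 CPM. The highest Rho0 value lay just under the lowest parental value, and the coefficient of variation was 21.9% in Rho0 against 4.78% in parental cultures. The log2 fold change was -0.38 (SE 0.14, edgeR adjusted p = 0.039). The call ended without any 1 of the 4 parental replicates or Rho0 replicates 3 or 4 (adjusted p = 0.053 to 0.110), and with total-count scaling the value was 0.0025. BAD (chromosome 11, 64269830 to 64284704, minus strand) overlaps GPR137 on the other strand, whose log2 fold change was 0.21 (adjusted p = 0.160). The library kit keeps the strand, but the sources used here do not say whether counting made use of it.

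**Figure D2:**
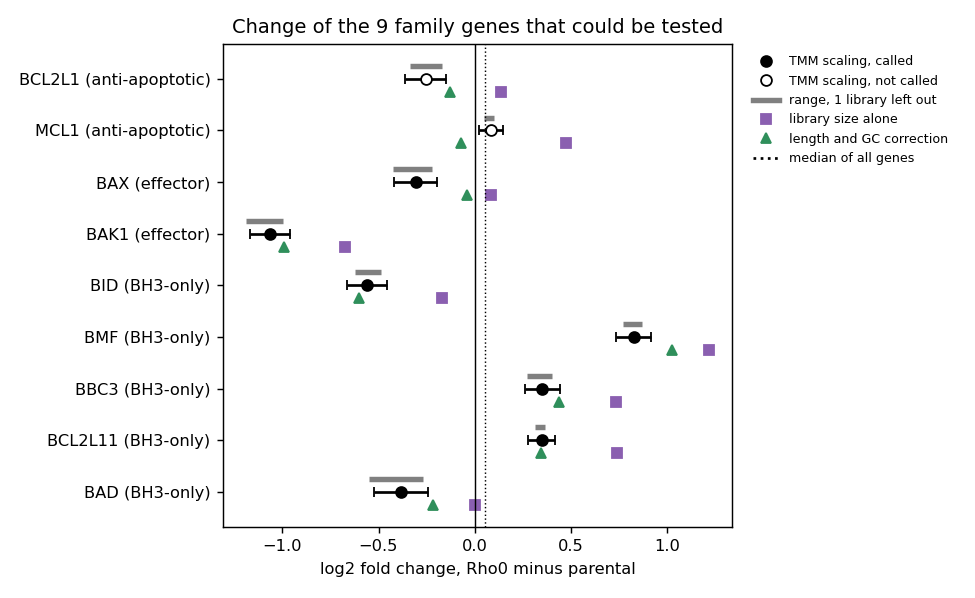
Log2 fold change (Rho0 minus parental, horizontal axis) of the 9 tested members with its SE, filled where called. Grey bars give the range when 1 library is left out, squares scaling by total count alone, triangles the length and GC correction, and the dotted line the median of all genes (0.05). BAK1 and BID stay left of 0 and BMF, BBC3 and BCL2L11 right of 0 in each of these settings, while BCL2L1, MCL1, BAX and BAD reach both sides or lie at 0.

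The scaling of the libraries moved all genes together. With total counts alone the median of all genes went from 0.05 to 0.44. Relative to that median, members kept their values within 0.01 on the log2 scale: BAK1 was at -1.12 with either scaling, BID at -0.61 with either, BAD at -0.43 and -0.44, BMF at 0.77 with either and BCL2L11 at 0.30 with either. Relative to the median of its fit, the correction for length and GC content moved BAX from -0.36 to -0.06, BAD from -0.43 to -0.24, BCL2L1 from -0.31 to -0.15 and MCL1 from 0.03 to -0.09. It moved BMF away from 0, from 0.77 to 1.004, and BBC3 from 0.30 to 0.42, while BAK1 went from -1.12 to -1.01, and BID and BCL2L11 moved by less than 0.05.

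Within the Rho0 group, replicate 4 had the lowest value for 7 of the 9 tested members (BCL2L1, BAX, BAK1, BID, BMF, BBC3 and BAD) and the highest for BCL2L11. Replicate 1 had the highest value for 5 (BCL2L1, BAX, BAK1, BBC3 and BAD). The coefficient of variation was larger in Rho0 than in parental libraries for 8 of the 9 members. How often all tested genes show these orders and this larger spread was not computed, so the counts are not to be read as particular to the family. The reason for these differences among cultures was not tested. Without Rho0 replicate 4, 3 members were called higher and 3 lower, BAD being the one lost. Without Rho0 replicate 2, the library with the residual mitochondrial mRNA, 3 were called higher and 3 lower, BAX being the one lost.

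Ratios of 2 messages within a library do not depend on how libraries are scaled, and BCL2L1, the most abundant guard, was used as the reference. The log2 ratio of BMF to BCL2L1 was -5.21 to -4.93 in parental and -4.13 to -3.83 in Rho0 libraries, a mean difference of 1.09. For BBC3 the ranges were -4.20 to -3.71 and -3.38 to -3.12 (difference 0.61), and for BCL2L11 -4.30 to -4.03 and -3.73 to -3.13 (difference 0.61). BID went the other way, from -4.47 to -4.08 in parental to -4.65 to -4.49 in Rho0 libraries (difference -0.30), also without overlap. Since BCL2L1 itself lay below the median of all genes, these values are read against those of all other tested genes: their median difference from BCL2L1 was 0.30, and 37.1% lay higher and 11.2% lower in Rho0 without overlap. Against MCL1 the ranges also lay apart, with differences of 0.74 for BMF, 0.27 for BBC3 and 0.26 for BCL2L11. Of all other tested genes 21.6% lay higher and 26.8% lower against MCL1 without overlap, with a median difference of -0.05. The nearest approach was BBC3 to MCL1, at -2.529 in parental replicate 4 and -2.517 in Rho0 replicate 4. BAX to BCL2L1 gave -1.24 to -1.14 and -1.32 to -1.16, and BAD to BCL2L1 -3.86 to -3.51 and -4.001 to -3.62, both overlapping. MCL1 to BCL2L1 was -1.54 to -1.17 and -1.13 to -0.61, without overlap, and its difference of 0.35 is near the 0.30 of the median gene. These ratios are descriptions, and no test was run on them.

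**Figure D3:**
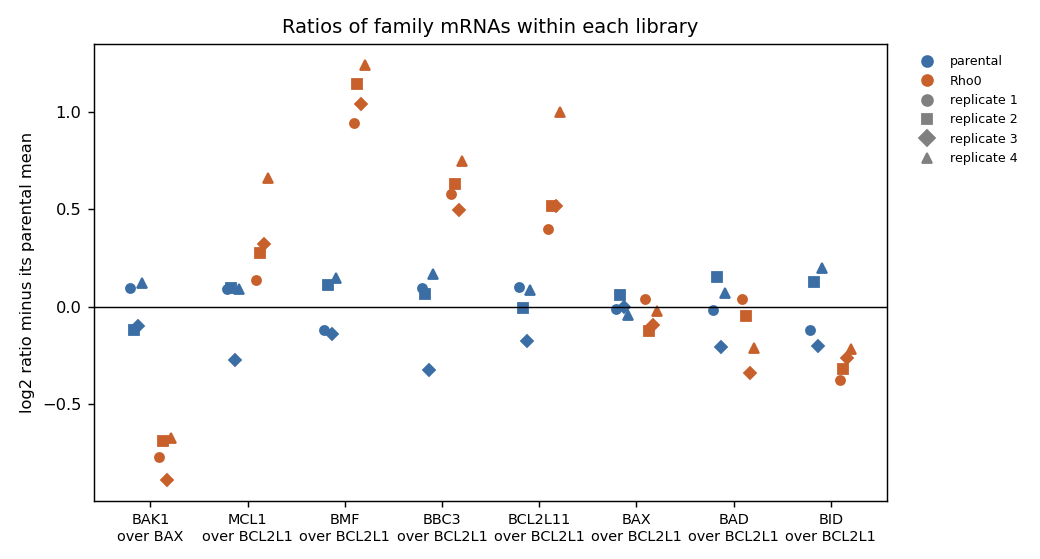
Log2 ratio of 2 family messages in each library (vertical axis, minus the mean of the parental libraries), with parental libraries in blue, Rho0 in orange and symbols for replicates. BMF over BCL2L1 lies 1.09 higher in Rho0 on average and BAK1 over BAX 0.76 lower (a difference of -0.76), while BAX over BCL2L1 overlaps between the lines.

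The mix of the family was taken as each role's share of the summed CPM per kilobase in a library. Anti-apoptotic messages made up 51.4 ± 0.671% in parental and 51.5 ± 1.11% in Rho0 libraries (SD, n = 4 each), a difference within the spread. With the median length, most of it was BCL2L1 (46.5 ± 1.01% and 45.4 ± 1.19%), beside MCL1 at 4.89% and 6.10%. With the longest transcript, BCL2L1 was at 38.2% in parental and 37.5% in Rho0 libraries and MCL1 at 10.6% and 13.2%. Effectors made up 36.4 ± 0.793% and 33.5 ± 1.22%, with 35.4% to 37.2% in parental and 32.4% to 35.3% in Rho0 libraries, ranges that nearly touch. BH3-only messages made up 12.2 ± 1.01% and 14.98 ± 0.722%, with 10.8% to 13.1% in parental and 14.1% to 15.6% in Rho0 libraries. BMF alone went from 1.89 ± 0.171% to 3.92 ± 0.317%. With the longest transcript as length, the anti-apoptotic share was 48.8 ± 0.491% in parental and 50.7 ± 1.44% in Rho0 libraries, and the BH3-only share was 14.4% and 16.3%. The BH3-only ranges then overlapped narrowly, at 12.78% to 15.40% in parental and 15.36% to 16.95% in Rho0 libraries. With the shortest transcript they lay apart, at 13.1% to 15.6% and 16.5% to 18.9%. The separation of this share thus depends on the transcript lengths used.

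**Figure D4:**
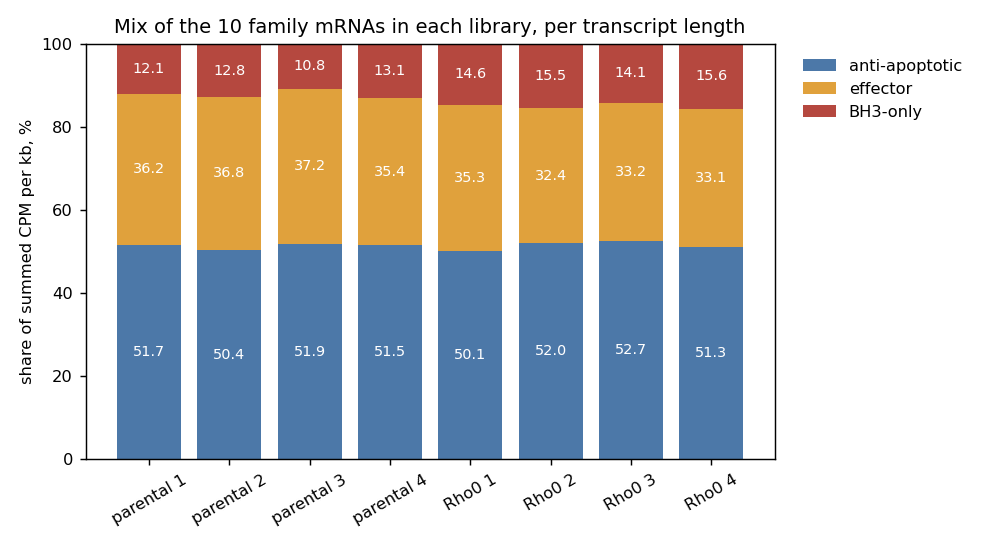
Share of the summed CPM per kilobase of the 10 members (vertical axis, percent) by role in each library. BH3-only messages are at 10.8% to 13.1% in parental and 14.1% to 15.6% in Rho0 libraries, and anti-apoptotic messages at 50.1% to 52.7% in all 8.

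Among 13 further family genes, 8 could be tested, of which 2 rose and 1 fell (median log2 fold change 0.0048). BCL2L12, an atypical member, dropped to 11.1 ± 1.78 CPM in Rho0 from 20.1 ± 0.925 in parental libraries (SD over 4 libraries each), a log2 fold change of -0.84 (SE 0.11) with an edgeR adjusted p of 1.1e-04. BOK, an effector-like member, rose from 40.0 ± 3.24 to 50.02 ± 7.72 CPM (0.32, SE 0.11, adjusted p = 0.033). The anti-apoptotic BCL2A1, named for being the remaining called gene, rose from a low level (16 summed counts in parental and 113 in Rho0 libraries; 0.182 ± 0.0308 and 0.906 ± 0.210 CPM; 2.33). PMAIP1, which encodes the MCL1-binding BH3-only protein NOXA, had 18.3 ± 2.62 and 16.8 ± 3.09 CPM and was not called. The guardian BCL2L2 had 35.3 ± 2.29 and 39.9 ± 0.756 CPM, and the mitophagy receptors BNIP3 and BNIP3L 25.1 ± 1.10 and 23.5 ± 1.97, and 57.3 ± 0.740 and 60.5 ± 7.17 CPM, none of them called. BCL2L10, BIK, HRK, BCL2L14 and BCL2L15 were below the filter.

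Downstream of the membrane, 2 of 12 tested genes of the apoptosome and of released mitochondrial factors rose and 4 fell (median -0.04). CASP9, the initiator caspase of the apoptosome, fell from 21.1 ± 0.898 CPM in parental to 11.1 ± 0.952 CPM in Rho0 libraries (log2 fold change -0.93, edgeR adjusted p = 7.9e-06). BIRC2, a ubiquitin ligase that restrains caspases, rose 1.63-fold, and HTRA2, a protease released from the intermembrane space, 1.41-fold. AIFM1, a flavoprotein of the intermembrane space, also fell. On the death receptor route to BID, 2 of 9 rose (median -0.02), the receptors FAS (1.54-fold, groups overlapping) and TNFRSF10A (1.20-fold). None of the 9 was called lower in edgeR, while 2 (CASP8, which cuts BID, and its inhibitor CFLAR) were lower at an unadjusted p under 0.05, 2 by DESeq2 and none by limma.

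Of 10 transcription factors known to act on family genes, 4 rose and 5 fell (median -0.19). DDIT3, which encodes the stress factor CHOP, rose from 3.56 ± 0.152 CPM in parental to 10.1 ± 0.753 CPM in Rho0 libraries (1.51 on the log2 scale, SE 0.10, edgeR adjusted p = 5.8e-07). ATF4, the effector of the integrated stress response, rose 2.00-fold. FOXO3, a regulator of BCL2L11 and BBC3, rose from 32.4 ± 0.982 to 46.9 ± 7.28 CPM (0.54, SE 0.10, adjusted p = 0.0014). E2F1, a cell cycle factor, fell from 54.8 ± 3.85 to 27.4 ± 4.16 CPM, and FOXO1, ATF3, JUN and STAT3 also fell.

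Of 14 protein partners and post-translational regulators, 3 rose and 7 fell (median -0.23). DYNLL1, the dynein light chain that binds BIM, was at 139.7 ± 7.35 CPM in parental and 90.05 ± 5.87 CPM in Rho0 libraries and fell by 0.63 on the log2 scale (SE 0.07). DYNLL2, its paralog that binds BMF, also fell, but not with total-count scaling. AKT1, which phosphorylates BAD, had a log2 fold change of -0.54, and the kinase GSK3B, which marks MCL1 for degradation, rose 1.63-fold. With total-count scaling AKT1 was at -0.15 and not called (adjusted p = 0.052). With TMM scaling, the shares called in these lists are to be read against the 29% and 25.4% of all genes. They also move with the scaling: with total counts alone, 6 rose and 1 fell of the further family genes, 6 and 1 of the apoptosome list, 9 and 0 of the death receptor route, 4 and 2 of the transcription factors and 5 and 1 of the partners. The background moved too: with total counts alone, 8572 of all 15184 genes tested were called higher and 1540 lower, and these counts are to be read against it. BCL2L12, CASP9, E2F1, JUN and DYNLL1 were the genes still lower there. The other genes of these lists called lower with TMM scaling were not called lower there. All 9 genes of the death receptor route, CASP8 and CFLAR among them, were called higher with total counts alone.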

How the data were processed

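RNA was extracted with RNAzol, and poly-A-enriched, strand-specific libraries were made, per the labels' protocols. The authors deposited estimated counts for 38010 Ensembl gene IDs and a table of 12885 genes on a log2 scale. Tools named in the submitters' processing notes are limma, edgeR and kallisto, with GRCh38 as the build, while versions, annotation and scaling are not given in the sources used here. Of 11402 genes compared with at least 20 counts in each library, 11149 (97.8%) of the deposited log2 values equalled log2(count × factor + 1), with 1 factor for each sample, to a relative tolerance of 0.001.

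Columns were matched to samples by the replicate name in the labels. Symbols came from a table of gene IDs with GENCODE 29 as supplement (34284 IDs named), coordinates and transcript lengths from GENCODE 29 (GRCh38). Estimated counts were rounded and fitted across all genes after filterByExpr (minimum count 10) and TMM scaling, using the quasi-likelihood test of edgeR 4.0.16 under R 4.3.3 and no term but the group. P-values were Benjamini-Hochberg adjusted over 15184 genes and called at 0.05. The SE is the log2 fold change divided by the square root of F. One count was worth 0.0225 to 0.0753 CPM. Between libraries of 1 group, chi-square per degree of freedom was at least 4.21, so none was a copy.

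Alternatives were DESeq2 1.42.0 (size factors, Wald test), limma 3.58.1 (voom, and trend on the deposited log2 table), total counts, totals without mitochondrial genes, other filters, a robust fit, a per-library spline correction for length and GC content of transcripts (known for 93.7% of genes), a block for the replicate number and the omission of each library. Named beside the 10 members were up to 3 called genes per list with the largest changes at 5 CPM or more, and FOXO3 and DDIT3 whatever their values; some items of the lists are not reported here. Promoters are RefSeq's (9 members matched). The members and lists were chosen with earlier results of these data known. Tables used Python 3.11.15, pandas 2.3.3, scipy 1.17.1 and matplotlib 3.10.9.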

Additional observations from a re-analysis of the deposited data

Results flagged for a closer look

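In 4 of 28 groups of 4 libraries looked at, 1 library lay far from the other 3, the gap as a share of the group's range exceeding Dixon's 95% critical value for 4 samples. Chance gives about 1 such group in 20. Rho0 replicate 4 was lowest for BID, at 10.5 CPM, and highest for BCL2L11, at 27.0 CPM. Parental replicate 1 was lowest for BMF, at 9.35 CPM. Rho0 replicate 2 had the highest share of mitochondrially encoded mRNA in its group, 0.149%. Without these libraries in turn, BID, BCL2L11 and BMF were still called in the same direction.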

How the results depend on the processing

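BAK1, BMF, BBC3 and BCL2L11 were called in the same direction in all 20 alternatives run, with log2 fold changes of -1.19 to -0.67, 0.77 to 1.22, 0.27 to 0.74 and 0.31 to 0.74. BID was called in 19 of 20 and lost its call with total-count scaling (-0.17). That scaling turned the sign of BCL2L1 (0.14), BAX (0.0858) and BAD (0.0025), called MCL1 (0.47), and left 1 member lower and 4 higher. Over all genes it gave 8572 higher and 1540 lower, against 4399 and 3858. The length and GC correction turned MCL1 to -0.0691 (-0.0712 with the replicate block added) and ended the call of BAX (-0.04, also with the block); the cause was not tested. Leaving out 1 library at a time gave 3 members higher in every case and 2 to 5 lower. BAX ranged from -0.42 to -0.22 and kept its call in 3 of 8 cases, BAD from -0.55 to -0.27 with 2 of 8, and BCL2L1 from -0.34 to -0.17 with 1 of 8 called.

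Per length, the longest transcript gave an anti-apoptotic share of 48.8% in parental and 50.7% in Rho0 libraries and BH3-only shares of 14.4% and 16.3% in parental and Rho0. The shortest gave anti-apoptotic shares of 61.2% and 60.6%, effector shares of 24.2% and 22.0% and BH3-only shares of 14.6% and 17.4%. Same-numbered replicates were treated as unpaired in the main fit. Their deviations from the group means correlated at -0.13 to 0.16, and 2 of 4 numbers had their highest correlation within the pair. With so few libraries, these values cannot decide whether cultures were handled in pairs. The replicate block called 4215 genes higher and 3802 lower and 3 and 5 members, adding BCL2L1 (-0.26, edgeR adjusted p = 0.041). BCL2 is limited by depth, with 4 to 11 counts in each library.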
